A study of Arabidopsis thaliana with 30 samples.

Results

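Whole stratification was compared with the dry state in seed of Arabidopsis thaliana Col-0: 3 arrays of seed kept for 48 h at 4 °C in darkness on MS medium against 3 arrays of dry seed (0 h), which had been dried after harvest. These 6 of the 30 samples of the series were taken by their titles, and all 22746 probe sets that are not controls were tested. The series follows germination in 10 groups of 3 samples, from freshly harvested seed through dry seed and 1, 12 and 48 h of stratification to 1, 6, 12, 24 and 48 h in continuous light of 100 µE at 22 °C. Each sample was 80 mg of whole seed, so embryo, endosperm and seed coat were measured together, and biotin-labelled RNA was made from 400 ng of total RNA. Drying took 14 days according to the treatment protocol and 15 days according to the design text. Dry seed and seed at 48 h differ in water uptake, cold, contact with medium and time at once, and the effects of these cannot be told apart here. The labels do not say whether the 3 replicates came from separate seed batches. The p-values reflect the spread between replicate arrays, pooled over the 30 arrays of the series, and that spread may be technical.

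A dry seed holds stored messenger RNA, reserves of protein and oil, and protective proteins such as the late embryogenesis abundant (LEA) proteins that accumulate while the seed dries on the plant. Once the seed takes up water, stored transcripts are broken down, transcription and translation start again, and the embryo prepares cell expansion, while visible growth waits for warmth and light. Stratification is a moist cold period that promotes germination by releasing dormancy.

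Levels are the deposited intensities of probe sets on a linear scale. Differences are 48 h of stratification minus dry seed on the log2(value + 16) scale, which understates the change of dim probe sets. A probe set was called changed at a Benjamini-Hochberg adjusted p under 0.05 in limma together with a log2 difference of at least 1. Replicates correlated at 0.985 to 0.993 in dry seed and at 0.996 to 0.997 at 48 h (Pearson's r over probe sets). On the dry seed arrays 7281 to 7586 probe sets reached an intensity of 50, against 8230 to 8307 at 48 h, and the 100 brightest probe sets held 24.9 to 25.4% of all signal against 21.6 to 21.8%.

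The control probe sets for the bacterial transcripts bioB, bioC and bioD moved between the groups as well. These bioB, bioC and bioD controls are foreign RNAs that are normally added to the labelled sample in fixed amounts, and the labels give neither the amount nor the step of their addition. The array carries 7 r2 probe sets for them and 7 of an older design. All 7 of the r2 kind were lower at 48 h, with log2 differences from -1.39 to -0.79, and so were the 7 older ones, with -1.33 to -1.01, and in each the 48 h arrays lay below all dry seed arrays. The mean log2 intensity of the r2 kind was 9.16 in dry seed (8.86 to 9.53 over 3 arrays) and 8.09 at 48 h (7.90 to 8.32). Against dry seed the other groups lay -0.15 apart in freshly harvested seed, -0.06 and -0.34 after 1 and 12 h of stratification, and -1.28 to -1.08 in light. The cre control was brighter. Its 2 r2 probe sets differed by -0.14 and -0.20, with overlapping arrays, and its 2 older ones by -0.36 and -0.52, of which the first overlapped and the second did not. Further bacterial controls, dap, lys, phe and thr, moved in both directions and were not used for scaling. Among the r2 sets of dap, that near the 5′ end went from 86.2 to 173 and that near the 3′ end from 426 to 276. Below, the bacterial controls are bioB, bioC and bioD. Scaling every array to the 7 r2 probe sets of bioB, bioC and bioD, an alternative chosen after seeing the data, moved the median difference of all probe sets from -0.04 to 0.33 and altered many calls, as given below. Why the controls differed was not tested. The signal near the 3′ end over that near the 5′ end, a sign of RNA quality, depended on the control probe sets read. On the log2 scale the r2 sets gave 0.22 in dry seed and 0.41 at 48 h for actin, -0.41 and -0.27 for GAPDH, and -0.75 and -0.88 for ubiquitin. The older sets gave 3.38 and 4.44 for actin, 2.75 and 2.48 for GAPDH, and 0.97 and 1.22 for ubiquitin, and for actin and ubiquitin all 3 arrays at 48 h lay above all 3 of dry seed. The part of RNA quality in the results was not tested.

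**Figure D1:**
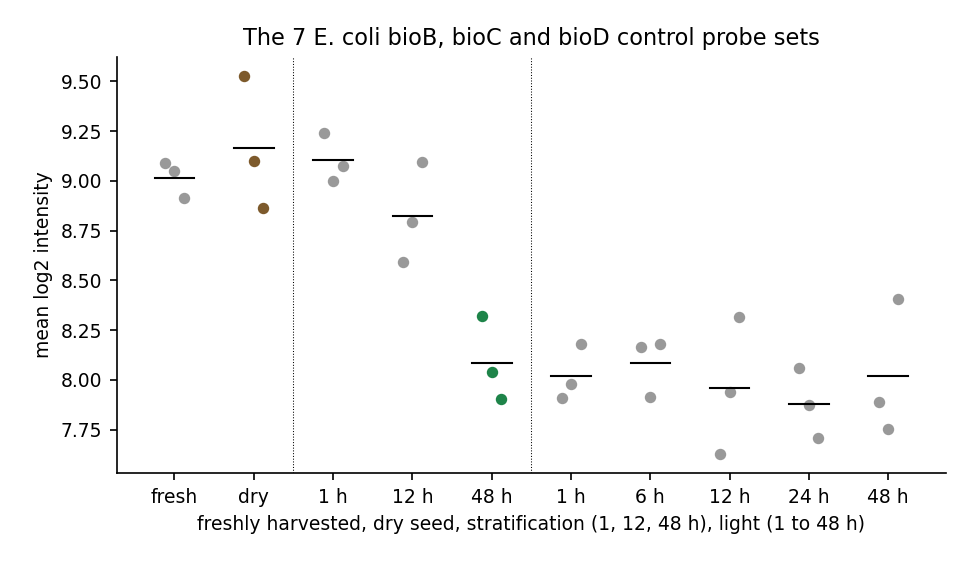
Mean log2 intensity of the 7 r2 control probe sets of bioB, bioC and bioD (vertical axis) on each of the 30 arrays, by group in the order of the course (horizontal axis); points are arrays. The 3 dry seed arrays lie between 8.86 and 9.53 and the 3 arrays of 48 h of stratification between 7.90 and 8.32, a difference of means of -1.08.

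After 48 h of stratification 4846 of the 22746 probe sets (21.3%) had changed, 2974 higher (13.1%) and 1872 lower (8.23%). At a log2 difference of at least 2, 999 were higher (4.39%) and 665 lower (2.92%), and at 4 or more 89 and 94. The adjusted p alone, with no limit on size, was passed by 14167 probe sets (62.3%), 6006 higher and 8161 lower. That count takes in small differences near the floor, so it does not show that more transcripts fell than rose. The first quartile of all probe sets was 6.52 in dry seed and 5.63 at 48 h. CLPB2, at 5.82 and 5.20, passed with a difference of -0.04 (limma adjusted p = 0.0026). With the arrays scaled to the bacterial controls 6561 probe sets were higher and 776 lower, so that the share of higher calls was 89.4% instead of 61.4%, while 3750 probe sets were called in the same direction either way and 0 in opposite directions. In bulk seed RNA, fewer cells of a type and less RNA per cell cannot be told apart in any of these differences. Among the 9198 probe sets with a mean of at least 50 in either group, 4543 (49.4%) were changed, and for 3558 (38.7%) the 95% confidence interval of the difference lay within -1 and 1. In 4839 of the changed probe sets the arrays of the 2 groups did not overlap, a property shared by 79.8% of all probe sets tested.

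**Figure D2:**
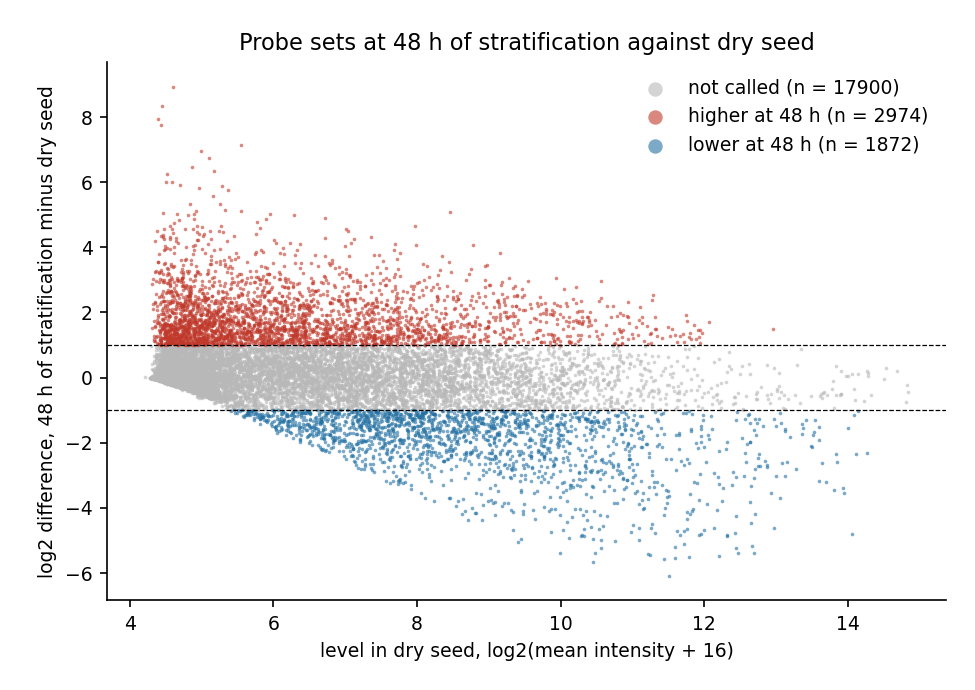
Difference of 48 h of stratification minus dry seed on the log2(value + 16) scale (vertical axis) against the level in dry seed, log2(mean intensity + 16) (horizontal axis), with 1 point for each of the 22746 probe sets. The 2974 probe sets called higher and the 1872 called lower are coloured, and the dashed lines mark a difference of 1 in either direction.

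In dry seed the probe sets that later fell were mostly brighter than those that later rose, which the way they were chosen favours. The calls themselves rest on these dry seed values. A probe set near the floor in dry seed cannot fall far enough to be called lower, so the levels are a description. Probe sets called lower had a median intensity of 352 in dry seed and 77.9 at 48 h, and those called higher 42.9 and 216. Of the 1014 probe sets with a mean of at least 1000 in dry seed 451 (44.5%) fell and 125 rose. Of the 993 that reached 1000 at 48 h 493 (49.6%) had risen. Taking probe sets for a high level in dry seed favours falls, and at 48 h rises, so these shares too are a description. A further 83 probe sets were under 20 on every dry seed array and at least 200 on every 48 h array, and 27 showed the reverse.

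The groups on either side of the comparison were measured on other arrays. Before 48 h, when their median was 216, the probe sets called higher had medians of 45.3 (freshly harvested), 51.7 (1 h of stratification) and 76.2 (12 h). In light their median was 224 at 1 h, 212 at 6 h, 210 at 12 h, 192 at 24 h and 146 at 48 h. The probe sets called lower had medians of 354 (freshly harvested), 353 (1 h of stratification), 280 (12 h) and 77.9 (48 h), and in light 78.4, 66.8, 55.7, 47.7 and 41.8 at 1, 6, 12, 24 and 48 h. Both sets were chosen for their difference at 48 h, and their levels at the other times are a description.

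**Figure D3:**
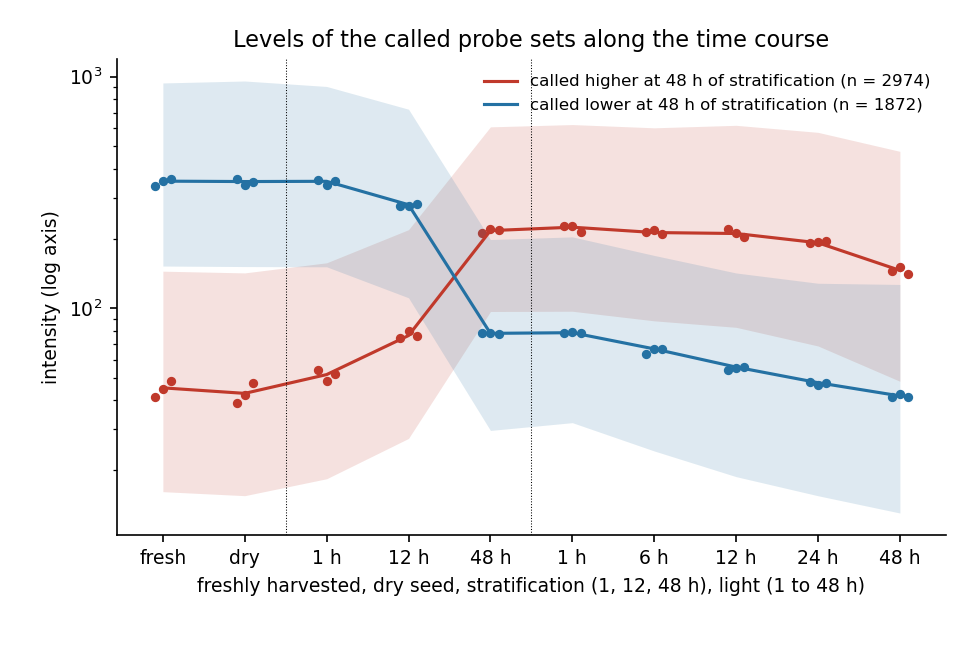
Median intensity (vertical axis, log scale) of the probe sets called higher and of those called lower in each of the 10 groups (horizontal axis), with points for single arrays and shading between the quartiles over probe sets. The higher set has a median of 42.9 for dry seed and 216 after 48 h of stratification, the lower set 352 and 77.9.

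In the annotation used here 13355 genes are named by a probe set that names no other gene, and of these 1521 were higher (11.4%) and 1089 lower (8.15%). Only 1557 of them carry a symbol, of which 193 were higher and 139 lower; the others are listed by locus code, and a role is given to one of those only where the reference gene table holds a further name for it. The difference of single probe sets ran from -6.09 to 8.94. Of probe sets that name no gene, 11 rose by more than any named gene and 1 fell by more. Only 4874 of the 13355 named genes reached a mean of 50 in either group. Of the changed probe sets 303 were under 50 in both groups. Among all probe sets that reached 50, 49.4% were changed, a nearer share for lists of bright genes. All members of the ribosome biogenesis, storage and autophagy lists and 22 of 27 LEA members below were that bright.

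The named gene with the largest rise was the locus AT4G30650, with 7.53, 7.71 and 8.67 on the dry seed arrays and 1698, 1432 and 1484 on the 48 h arrays, a log2 difference of 6.02 ± 0.14 (SE) (adjusted p = 6.69e-20). It was near the floor of the arrays in dry seed and bright on every 48 h array. The loci AT5G11420 (25.3 to 2246, group means) and AT3G48140 (12.7 to 1121) rose by 5.77 and 5.32. AT3G60245, among the brightest named genes at 48 h, measured 2359, 2528 and 2578 on the dry seed arrays and 14453, 14049.5 and 14743 on the 48 h arrays and rose by 2.53. The largest fall was that of AT5G39520, with 1686, 1223 and 1243 on the dry seed arrays and 16.3, 8.72 and 8.92 on the 48 h arrays, a difference of -5.67 ± 0.11 (SE) (adjusted p = 5.77e-21). AT5G05220 and AT1G52560 fell by 5.55 and 5.50, from means of 3075 and 3528 to 50.1 and 62.5. AT2G25625 dropped from 688, 639 and 663 to 4.37, 4.38 and 4.38, at the floor of the arrays on all 3. In none of these loci did the 2 groups overlap, and the 15 largest rises and the 15 largest falls were chosen among genes without overlap.

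Among genes of ribosome and RNA production the calls were rises. In the list of ribosome biogenesis factors 4 of 7 members rose and 0 fell, with a median difference of 1.30 against -0.04 over all named genes. All 7 reached a mean of 50 in either group, and of all probe sets that bright 49.4% were changed in either direction. YAO (AT4G05410), a nucleolar protein of ribosomal RNA processing, measured 80.6, 76.4 and 110.4 on the dry seed arrays and 828, 877 and 892 on the 48 h arrays. All its 48 h arrays were far above all its dry seed arrays, and it rose by 3.08 ± 0.13 (SE) (adjusted p = 1.89e-15). AT5G14520, which the reference gene table also names PESCADILLO, a nucleolar factor of the large ribosomal subunit, was already bright in dry seed at 683, 879 and 918 and stood at 4368, 4603 and 4992 after 48 h, a rise of 2.48 ± 0.10 (SE). PRH75 (AT5G62190), a nucleolar DEAD-box RNA helicase, rose by 2.23 from 583 to 2714, and RRP41 (AT3G61620), a core subunit of the RNA exosome, by 1.30. The translation initiation factor EIF4A-2 (AT1G54270), an RNA helicase that unwinds messenger RNA for the ribosome, rose by 2.55 with 489, 541 and 663 on the dry seed arrays and 3223, 3342 and 3529 on the 48 h arrays, and PGY1 (AT2G27530), a protein of the large ribosomal subunit, by 1.36. Cytosolic ribosomal proteins and translation factors each had only that 1 named member, so neither family is described by it.

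Of 12 named subunits of the nuclear RNA polymerases 5 rose and 0 fell (median 0.85). This list and that of the THO complex were added after values were seen. The largest subunit of RNA polymerase I, which transcribes ribosomal RNA genes, is NRPA1 (AT3G57660), and it measured 68.6, 67.2 and 87.4 on the dry seed arrays and 390.2, 353 and 339 on the 48 h arrays. It rose by 2.06 ± 0.14 (SE) (adjusted p = 9.87e-12), with no overlap between the groups. NRPA2 (AT1G29940), the second largest subunit of the same enzyme, rose by 1.92 from 199 to 797. The further subunits that rose, NRPB9B, NRPB7 and NRPB12, differed by 2.35, 1.32 and 1.10, while NRPB6A, at 1319.8 and 2310.3, was not called (difference 0.81, 95% confidence interval 0.54 to 1.08), except with scaling to the bacterial controls (1.88). The THO complex couples transcription to the export of messenger RNA, and 4 of its 5 named members rose (median 1.35). THO1 (AT5G09860) stood at 60.3, 42.4 and 63.3 on the dry seed arrays and 382, 340.2 and 319 on the 48 h arrays and rose by 2.36. TEX1 and the THO7 of locus AT3G02950 rose by 1.35 and 1.36. THO5, the other member that was called, lay at 1.03 and would be called no longer without dry seed replicate 1 (0.92) or without either replicate 1 (0.98) or replicate 3 (0.99) of 48 h. THO5 also came to 0.82 with quantile normalization and 0.95 with median centring. With quantile normalization TEX1 and THO7 too lay just under 1, at 0.99 each, and with a pseudocount of 64 TEX1, THO7 and THO5 came to 0.84, 0.82 and 0.80.

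Histone genes moved in both directions. Of 7 named, 4 rose and 1 fell (median 1.20). HTB1 (AT1G07790), a core histone H2B, measured 97.8, 89.3 and 61.4 on the dry seed arrays and 1034, 1008 and 1048 on the 48 h arrays and rose by 3.42 ± 0.12 (SE) (adjusted p = 1.37e-16). HTB4, another H2B, was bright in both groups and rose by 1.90, from 1752 to 6539, and HTB2 rose by 1.20, just under the limit with a pseudocount of 64 (0.999). HTB11 at 584 and 792 was not called, but was higher with scaling to the controls (1.504). The member that fell is HIS1-3 (AT2G18050), a linker histone known to be induced by water deficit, at 552, 553 and 593 on the dry seed arrays and 126, 94.8 and 104 on the 48 h arrays, a fall of 2.24. Near-identical histone copies may share probes, so the H2B values need not each belong to 1 gene alone. Genes of purine, pyrimidine and ureide metabolism, a list added after values were seen, rose in 6 of 7 cases (median 1.77). PYRB (AT3G20330), aspartate carbamoyltransferase at the start of pyrimidine synthesis, stood at 35.5, 41.7 and 44.1 on the dry seed arrays and 399, 372 and 421 on the 48 h arrays and rose by 2.87. FAC1 (AT2G38280), an AMP deaminase needed for embryo development, rose by 2.77 to a mean of 845, and HGPT, a salvage enzyme for hypoxanthine and guanine, by 2.31. All 7 ribosome biogenesis factors, 8 of the 12 polymerase subunits, 4 THO members, 5 histones and all 7 nucleotide genes were higher when arrays were scaled to the bacterial controls.

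**Figure D4:**
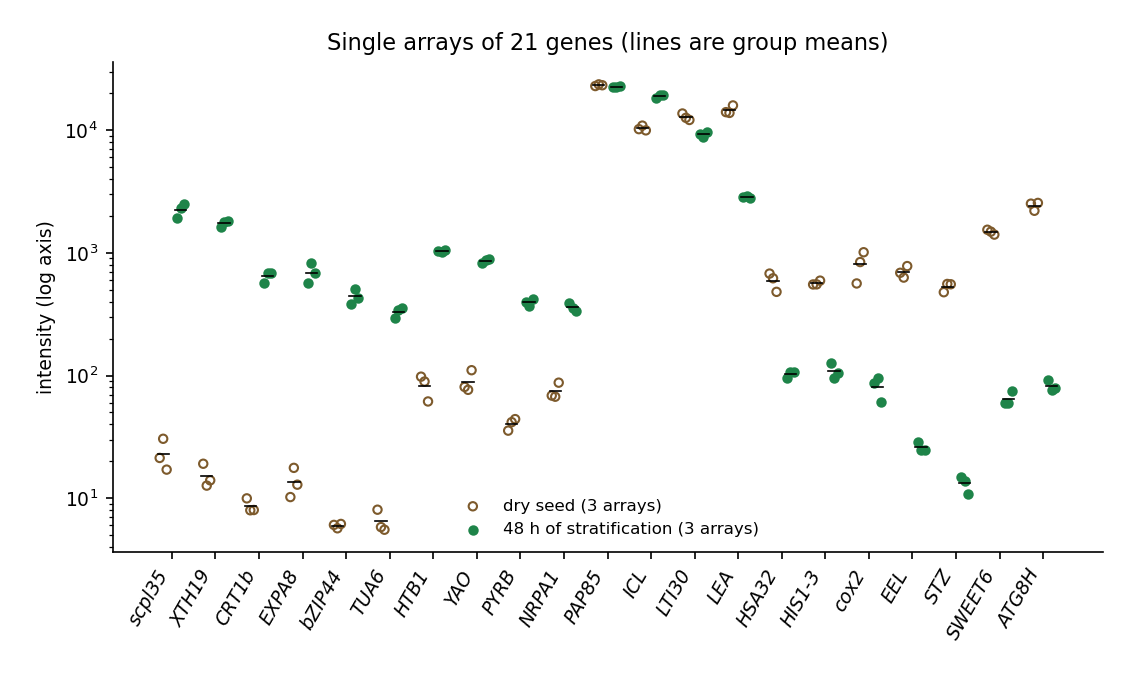
Intensity on each of the 6 arrays (vertical axis, log scale) for selected named genes (horizontal axis), dry seed and 48 h of stratification side by side; points are arrays and lines group means. From scpl35 to NRPA1 all 3 points at 48 h lie above those of dry seed, from LEA to ATG8H they lie below, and PAP85, ICL and LTI30 between them were not called.

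Genes of cell wall loosening were among the largest rises, although most members of their families were dim. Of 29 named expansins and xyloglucan endotransglucosylases 7 rose and 1 fell, and the list's median was -0.02. Only 7 of the 29 reached a mean of 50 in either group. XTH19 (AT4G30290), an enzyme that cuts and rejoins wall xyloglucan, measured 19.1, 12.7 and 14.0 on the dry seed arrays and 1617, 1787 and 1807 on the 48 h arrays and rose by 5.81 ± 0.10 (SE) (adjusted p = 9.72e-22). EXPA8 (AT2G40610), an expansin, a protein that loosens the wall without cutting it, stood at 10.2, 17.7 and 12.9 on the dry seed arrays and 563, 821 and 686 on the 48 h arrays, a rise of 4.57. Both were near the floor on every dry seed array and bright on all 48 h arrays. EXPA15 rose by 2.66 to a mean of 232, EXPB1 by 1.99 to 98.4 and XTH16 by 1.73 to 71.1, the last not called with a pseudocount of 64 (0.86). EXLA1 (AT3G45970), an expansin-like protein, ran the other way, with 291, 294 and 307 on the dry seed arrays and 47.9, 51.1 and 27.9 on the 48 h arrays, a fall of 2.45. EXGT-A3, at 87.2 and 170.0, was the brightest member that was not called (0.86, or 1.86 and called with scaling to the controls).

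Of 9 named tubulins, actins and actin-binding proteins 2 rose. TUA6 (AT4G14960), an alpha-tubulin of the microtubules, measured 8.06, 5.81 and 5.53 on the dry seed arrays and 292, 339 and 358 on the 48 h arrays and rose by 3.94 ± 0.10 (SE). TUB9 (AT4G20890), a beta-tubulin, rose by 1.83 from 240.1 to 892. COB (AT5G60920), an anchored surface protein that orients cellulose deposition, was the 1 riser among 13 genes of wall glycan synthesis, at 1.22, and came to 0.94 with a pseudocount of 64. In the cell cycle list 1 of 12 members rose and 1 fell. The fall was that of AUR2 (AT2G25880), an Aurora kinase of mitosis, from 186, 171 and 205 to 9.27, 16.4 and 9.18 (-2.89). The rise, of the DNA polymerase subunit POLD3, was 1.06 and came to 0.92 without dry seed replicate 3 and 0.48 with a pseudocount of 64. With quantile normalization it came to 0.86 and with median centring to 0.98.

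Genes of the endoplasmic reticulum moved in both directions. In the list of folding, exocyst and secretion genes 5 of 19 rose and 4 fell (median 0.45), and with arrays scaled to the bacterial controls 11 were higher and 0 lower. CRT1b (AT1G09210), a calreticulin that binds calcium and helps glycoproteins fold, measured 9.97, 7.97 and 8.01 on the dry seed arrays and 572, 689.9 and 685 on the 48 h arrays and rose by 4.75 ± 0.11 (SE) (adjusted p = 6.82e-20). The J-domain co-chaperones ATERDJ3B, ATERDJ2B and ATERDJ2A rose by 2.82, 1.65 and 1.61, to means of 171, 77.4 and 379.8. SPP (AT2G03120), the signal peptide peptidase, rose by 1.17. The 4 that fell serve vesicle fusion and docking: KEU (AT1G12360), a regulator of membrane fusion at cell division, stood at 193, 204 and 222 on the dry seed arrays and 75.8, 75.7 and 74.9 on the 48 h arrays and fell by 1.28. AtSec20 fell by 1.19, and the exocyst subunits SEC5A and EXO84B lay at -1.03 and -1.01. SEC5A dropped under the limit without dry seed replicate 3 (-0.91) or 48 h replicate 1 (-0.99), and EXO84B without dry seed replicate 1 (-0.996) or 48 h replicate 2 (-0.97). With a pseudocount of 64 ATERDJ2B lost its call (0.86), as did KEU (-0.95), AtSec20 (-0.93), SEC5A (-0.77) and EXO84B (-0.71).

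Serine carboxypeptidase-like proteins are secreted or vacuolar hydrolases that trim amino acids from the end of peptides. Of 29 named, in a list added after values were seen, 7 rose and 0 fell, beside a median of -0.03. The gene scpl35 (AT5G08260) measured 21.3, 30.5 and 17.1 on the dry seed arrays and 1922, 2332 and 2506 on the 48 h arrays and rose by 5.87 ± 0.17 (SE) (adjusted p = 3.44e-18), the largest rise among the genes that carry a symbol. For scpl29 (AT4G30810) the values were 7.05, 4.42 and 7.58 on the dry seed arrays and 397, 412 and 427 on the 48 h arrays, a rise of 4.26. The arrays of both genes were far apart between the groups. The genes scpl50 and scpl44 rose by 2.91 and 2.85, and SCPL49, at 398 and 266, was the brightest that was not called. CP1 (AT4G36880), a cysteine protease, stood at 12.97, 18.1 and 17.4 on the dry seed arrays and 699.8, 908 and 749 on the 48 h arrays and rose by 4.63.

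Transcripts of the dry state fell in part, and some of the brightest did not. In the list of LEA proteins and dehydrins 14 of 27 members fell and 0 rose (median -1.26). Of the 27, 12 carry a symbol or a name in the reference table, 3 of them lower, and 15 were placed in the list by locus code alone. With arrays scaled to the bacterial controls 7 were lower and 3 higher. LEA (AT2G21490), a dehydrin, measured 14023, 13822 and 15907 on the dry seed arrays and 2843, 2914 and 2822 on the 48 h arrays and fell by 2.34 (adjusted p = 1.68e-12). LEA4-5 (AT5G06760) fell by 1.73 from 10497 to 3145 and AtLEA4-1 (AT1G32560) by 1.56 from 16436 to 5575. After scaling to the controls these 3 lay at -1.27, -0.66 and -0.48, and only the first of them was called. LTI30 (AT3G50970), another dehydrin, was not called and stood at 13671, 12608 and 12105 on the dry seed arrays and 9317, 8822 and 9663 at 48 h. M17 and M10, of the same list, were among the brightest named genes at 48 h and were not called, at 14555 ± 475 and 18528 ± 681 (SD, n = 3) for M17 and 16124 ± 566 and 16764 ± 660.2 for M10, with 95% confidence intervals of the difference of -0.07 to 0.76 and -0.29 to 0.40. Scaled to the controls both were called higher, at 1.42 and 1.13. The locus AT3G22490, placed in the list by its code, fell furthest, from 6754, 6694 and 6306 to 146, 146 and 132.

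Among 7 storage and oil body genes 4 fell and 0 rose (median -1.06), and 2 of the 7 carry a symbol. OLEO3 (AT5G51210), an oleosin of the oil body surface, measured 702, 569 and 649.7 on the dry seed arrays and 166, 182 and 165 on the 48 h arrays and fell by 1.81. PAP85 (AT3G22640), a vicilin-like storage protein, was not called, with 22883, 23618 and 23236 on the dry seed arrays and 22612, 22314 and 22779 at 48 h, a difference of -0.04 (95% confidence interval -0.41 to 0.33). Scaled to the bacterial controls the same gene was called higher, at 1.03, and OLEO3 at -0.80 was no longer called. LCR67 (AT1G75830), a defensin-like protein among the 8 brightest named genes of both groups, overlapped between groups and differed by 0.10, or 1.17 and called after that scaling. BGLU19 (AT3G21370), a beta-glucosidase, fell by 2.63, with 12062, 13709 and 12419 on the dry seed arrays and 2107, 1795 and 2266 on the 48 h arrays. SWEET6 (AT1G66770), of the SWEET family of sugar transporters, fell by 4.21, with 1542, 1487 and 1408 on the dry seed arrays and 60.1, 59.4 and 74.96 on the 48 h arrays, while SWEET1 rose by 1.20 and the other 14 of 16 named members were not called.

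Of 9 named heat shock proteins and co-chaperones 5 fell and 1 rose (median -1.18), and with arrays scaled to the controls 3 were lower and 3 higher. Hop3 (AT4G12400), which links the chaperones Hsp70 and Hsp90, measured 474, 759 and 817 on the dry seed arrays and 59.6, 37.7 and 44.97 on the 48 h arrays and fell by 3.44. Its family member Hop1 (AT1G12270) rose by 1.59 with 99.6, 118 and 153 on the dry seed arrays and 398, 396 and 400.0 on the 48 h arrays, and Hop2, at 717 and 911, was called only with scaling to the controls (1.404). The arrays of Hop1 and Hop3 did not overlap between the groups and lay in opposite order. ATHSP22.0, a small heat shock protein of the endoplasmic reticulum, and HSA32 fell by 2.51 and 2.34. In the cold list, 2 of 5 members fell and 0 rose after these 48 h at 4 °C (median -0.86). Only 2 of the 5 reached a mean of 50 in either group, so the list does not show whether other cold-responsive transcripts rose. STZ (AT1G27730), a zinc finger repressor known to be induced by cold, salt and drought, stood at 477, 557 and 554 on the dry seed arrays and 14.7, 13.9 and 10.9 on the 48 h arrays, a fall of 4.22. After 12 h of stratification its mean was 4019, so the fall at 48 h does not describe the time between. COR27 fell by 1.71 from 482 to 138, and scaled to the controls it lay at -0.71 and was not called. COR15A and COR47, structural cold-regulated genes, had means of 23.1 and 11.7 in dry seed and 4.34 and 4.096 at 48 h, near the floor. COR15A, with dry seed arrays at 28.5, 6.31 and 34.6, was not called at -0.86, yet it was without dry seed replicate 2 (-1.22), with quantile normalization (-1.03) and, like COR47 (-1.01), with a pseudocount of 1 (-1.88).

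Most named autophagy genes fell. ATG8 proteins are coupled to lipid and line the autophagosome membrane, and of 11 named autophagy genes 8 fell and 1 rose (median -1.48). Scaled to the bacterial controls 4 were lower and 2 higher. ATG8H (AT3G06420) measured 2517, 2202 and 2552 on the dry seed arrays and 92.4, 76.8 and 78.6 on the 48 h arrays and fell by 4.63 (adjusted p = 6.06e-18). ATG8F and ATG8C fell by 2.32 and 2.25, from means of 2383 and 1052 to 466 and 205. APG8H (AT3G15580), also named ATG8I, stood at 6322, 6362 and 5789.6 on the dry seed arrays and 1515, 1540.0 and 1392 on the 48 h arrays, a fall of 2.04 that was -0.97 after scaling to the controls and then not called. ATG8D and APG8A fell by 1.48 and 1.25, or lay at -0.47 and -0.26 and were not called after scaling. AT5G66930, also named ATG101, a subunit of the kinase complex that starts autophagy, fell by 2.10. ATG8E lay at -1.14 with 1 high dry seed array (406, 228 and 229), and without that replicate 1 it came to -0.88 and was not called, nor was it with a pseudocount of 64 (-0.92) or with scaling (-0.16). ATG8B (AT4G04620) rose by 1.13, with 187, 160.1 and 202 on the dry seed arrays and 441, 440.2 and 373 on the 48 h arrays, which was 0.97 and not called with a pseudocount of 64. ATG8G at 225 and 346 was called only after scaling (1.63).

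The endosomal sorting complexes required for transport (ESCRT) shape vesicles on the way to the vacuole. Among 15 named members and related vacuolar sorting proteins 6 fell and 2 rose, with a median of -0.49 that became 0.48 when arrays were scaled to the bacterial controls, under which 2 were lower. This list too was added after values were seen. SNF7.1 (AT4G29160), a filament protein of ESCRT-III, measured 634, 429 and 473 on the dry seed arrays and 101, 104 and 82.9 on the 48 h arrays and fell by 2.23. AT2G36680, also named VPS37-2, an ESCRT-I subunit, fell by 2.04 from 306 to 60.5. VPS20.1 and ELC fell by 1.79 and 1.78, and after scaling to the controls neither was called (-0.85 and -0.82). VPS9B, of a family that activates small GTPases, rose by 1.33, and by 0.69 with a pseudocount of 64, when it was not called.

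**Figure D5:**
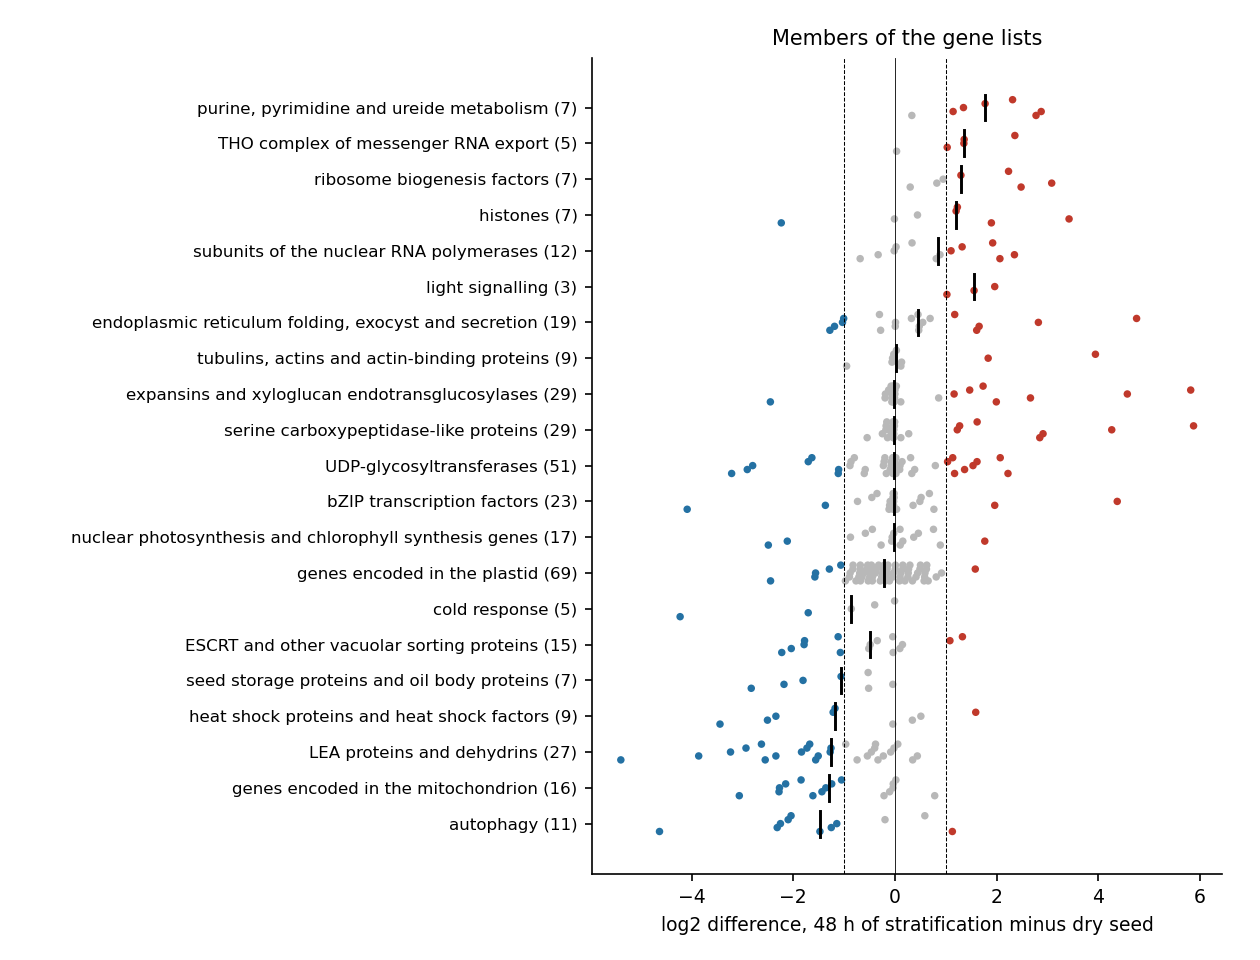
Log2 difference of 48 h of stratification minus dry seed (horizontal axis) for every named member of 21 gene lists (vertical axis, number of members in brackets); points are genes, coloured where called, and the vertical bars are list medians. The medians run from 1.77 for nucleotide metabolism to -1.48 for autophagy, against -0.04 over all named genes, most of which were under 50 in both groups. The 21 lists are a selection from those made. Those of nucleotide, THO, RNA polymerase, carboxypeptidase and ESCRT genes were added after values were seen, so their place in this order is a description.

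Most named transcripts encoded in the mitochondrion fell, and those of the plastid mostly were not called. Of 16 named mitochondrial genes 10 fell and 0 rose (median -1.30), and 5 were lower and 1 higher after scaling to the bacterial controls. The gene cox2, for a subunit of cytochrome c oxidase, measured 563, 841 and 1011 on the dry seed arrays and 87.4, 95.03 and 60.5 on the 48 h arrays and fell by 3.06 (adjusted p = 7.92e-14). The genes nad6 and nad9, for subunits of complex I, fell by 2.28 and 2.27, from means of 139 and 196 to 16.4 and 28.6. Of 69 named plastid genes 5 fell and 1 rose, and their median of -0.21 became 0.67 after scaling to the controls, with 20 higher and 1 lower. The brightest of those that fell was psbM, a small photosystem II subunit, at 11698, 9677 and 10327 on the dry seed arrays and 3851, 3510.3 and 3337 on the 48 h arrays, a fall of 1.56 that was -0.49 and not called after that scaling. The ribosomal protein gene rps15 fell by 2.45, but its dry seed arrays lay far apart at 2424, 1044 and 516, as did its 48 h arrays at 363, 229 and 75.9. Fitted to these 6 arrays alone rps15 and psbL lost the call. The ribosomal protein gene rpl16 rose by 1.58. How far the labelling captures organelle transcripts, most of which carry no stable poly(A) tail, was not tested.

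Of 17 nuclear genes for photosynthesis and chlorophyll synthesis 1 rose and 2 fell. CHLM (AT4G25080), a methyltransferase of chlorophyll synthesis, measured 45.5, 36.6 and 41.1 on the dry seed arrays and 171, 183 and 179 on the 48 h arrays in the dark and rose by 1.77. LHCB4.1 and LHCB4.2, antenna proteins of photosystem II, fell by 2.49 and 2.12, from means of 179 and 117 to 18.7 and 14.9. NTRC (AT2G41680), a plastid thioredoxin reductase, rose by 2.51.

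Among regulators, 2 of 23 named bZIP transcription factors rose and 2 fell. bZIP44 (AT1G75390) measured 6.06, 5.68 and 6.17 on the dry seed arrays and 385, 506 and 431 on the 48 h arrays and rose by 4.37 ± 0.17 (SE) (adjusted p = 3.91e-16). EEL (AT2G41070), a factor that acts on an LEA gene promoter in the maturing embryo, stood at 688, 628 and 779.8 on the dry seed arrays and 28.5, 24.8 and 24.7 on the 48 h arrays, a fall of 4.09. The values of these factors lay far apart between the groups in opposite order. HYH (AT3G17609), a partner of HY5 in light responses, rose by 1.96 in the dark, from 25.3 to 145, and BZIP28, a membrane-bound sensor of protein folding stress, fell by 1.37, which was -0.42 and not called after scaling to the controls. SPT (AT4G36930), a basic helix-loop-helix factor through which cold and light act on germination, rose by 1.55 with 11.5, 20.2 and 14.9 on the dry seed arrays and 73.0, 83.7 and 72.1 on the 48 h arrays, and lost its call with a pseudocount of 64 (0.82). FHL, which carries phytochrome A into the nucleus, lay at 1.02 and came to 0.99 without 48 h replicate 3 and 0.43 with a pseudocount of 64. With quantile normalization FHL came to 0.98 and with median centring to 0.94. The count of 3 risers among 3 light signalling genes rests on it. HAT2 (AT5G47370), a homeobox factor responsive to auxin, rose by 2.35 to a mean of 97.03, and PHV, a homeobox factor of organ polarity, by 1.84 to 90.4, the latter at 0.99 and not called with a pseudocount of 64.

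Hormone genes with a name were few on the list and mostly dim. Of 6 gibberellin genes 1 fell and 0 rose. GID1C (AT5G27320), a gibberellin receptor, measured 42.6, 56.5 and 55.1 on the dry seed arrays and 9.15, 12.5 and 14.0 on the 48 h arrays and fell by 1.27, while its relative GID1A, at 445 and 278, was not called. Scaled to the bacterial controls GID1C lay at -0.72, and with a pseudocount of 64 at -0.60, and was called in neither case. SLY1, an F-box protein that removes DELLA repressors, had means of 79.6 and 168 and a difference of 0.96, which passed the limit without dry seed replicate 1 (1.13) or 48 h replicate 1 (1.06), with a pseudocount of 1 (1.09) and with scaling (1.97). SPY, which restrains gibberellin signalling, had overlapping arrays around means of 299 and 213, and GID1B and SLY2 were at the floor, with means of 4.80 and 4.86 in dry seed and 4.98 and 4.45 at 48 h; none of the 3 was called. In the list of DNA methylation and small RNA genes AGO7, an Argonaute protein, rose by 1.22 to a mean of 34.6 (0.50 and not called with a pseudocount of 64), and DME, a DNA glycosylase, was at the floor with 5.48 and 4.93. IAA30 was the 1 auxin gene of 16 that fell (-1.20, but -0.79 with scaling and -0.52 with a pseudocount of 64, not called in either), and 0 of 6 cytokinin and 0 of 4 jasmonate genes were called. UDP-glycosyltransferases, which attach sugars to hormones and secondary compounds, changed in both directions, with 8 of 51 higher and 7 lower. UGT85A5 (AT1G22370) fell by 3.21, with 216, 181 and 209.7 on the dry seed arrays and 9.01, 7.44 and 6.09 on the 48 h arrays, whereas its relative UGT85A2 rose by 2.22 from 39.6 to 240.5. UGT78D2, of flavonol glycosylation, fell by 2.90, and UGT71C5, which glucosylates abscisic acid, rose by 1.61.

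Reserve and low oxygen genes were described on short lists. In the list made for fatty acid beta-oxidation and the glyoxylate cycle 1 of 4 genes rose, PEX4, which is not an enzyme of either pathway. The pathway enzymes ICL and AIM1 were not called. ICL (AT3G21720), isocitrate lyase of the glyoxylate cycle, was bright in dry seed at 10189.5, 10889.9 and 9959 and brighter at 48 h at 18452, 19237 and 19295, with no overlap, but its difference of 0.88 (95% confidence interval 0.72 to 1.04) was below the limit. With scaling to the controls it was called higher (1.95), as was SDP1 (1.53). PEX4 (AT5G25760), a peroxisomal ubiquitin-conjugating enzyme, rose by 1.27, the lipase gene SDP1 at 425 and 598 was not called, nor was AIM1, a multifunctional enzyme of beta-oxidation, at 2071 and 1145. In the low oxygen list PDC2 (AT5G54960), pyruvate decarboxylase of ethanol fermentation, fell by 2.10, with 2370.1, 2821 and 2563 on the dry seed arrays and 592, 530.2 and 657 on the 48 h arrays. AT3G10040, also named HRA1, an attenuator of the low oxygen response, rose by 1.49 to a mean of 53.1, and by 0.69 with a pseudocount of 64, when it was not called. The locus AT4G10270, placed in that list by code, rose by 5.13, with 16.2, 12.9 and 13.9 on the dry seed arrays and 1086, 1100.4 and 948 on the 48 h arrays.

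The calls of some other families are set beside the 11.4% higher and 8.15% lower of all named genes. Of 7 WRKY factors 0 were called, and of 22 cytochrome P450 genes 1 was, CYP71B37, which fell by 2.25. Among 22 beta-glucosidases 3 rose, BGLU44 by 2.33, and 1, BGLU19, fell. Of 31 glutathione transferases and redox enzymes 3 rose and 1 fell. Most members of these families were dim. A mean of 50 in either group was reached by 2 of the 7 WRKY, 6 of the 22 P450, 4 of the 22 beta-glucosidase and 11 of the 31 redox genes. Few calls therefore do not show that a family was unchanged. Markers of single seed tissues were dim: 0 of 3 endosperm, 0 of 2 seed coat and 0 of 1 green leaf marker reached 50 in either group or were called. DFR, of the seed coat list, had means of 8.25 and 5.71, and RCA, of green leaves, 11.1 and 29.1, with a difference of 0.76 that was called with scaling (1.52) and with a pseudocount of 1 (1.43). The seed storage and LEA transcripts PAP85, M17 and M10 were bright in both groups, with the values given above. They were picked from lists in which 4 of 7 storage and oil body genes and 14 of 27 LEA members fell. OLEO3, a planned seed marker, fell from 640 to 171, so these genes are no full check of the labelled tissue.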

How the data were processed

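Gene expression was measured on 30 one-colour Affymetrix arrays, 3 in each of 10 groups, named from the titles. The authors deposited 1 table of probe set intensities on a linear scale (2.54 to 32818). MAS5, RMA and Partek are listed, per the submitters' processing notes, without saying which of them gave these intensities, and versions are not given in the sources used here. Of 22810 probe sets 64 controls were set aside. Intensities were used as log2(value + 16), with no further scaling. limma 3.58.1 in R 4.3.3 (lmFit, eBayes) estimated a mean for each group from the 30 arrays together, with 20 residual degrees of freedom, and 48 h of stratification was compared with dry seed. The Benjamini-Hochberg adjustment ran over all 22746 probe sets, and the limits were 0.05 and a log2 difference of 1. Tables were made with pandas 2.3.3 and numpy 2.4.6 under Python 3.11.15, figures with matplotlib 3.10.9. The fit was tested on simulated data.

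GEO's platform annotation names exactly 1 gene for 13513 probe sets, several for 503 and none for 8730. Of the first kind 13436 were matched in the RefSeq gene table. For genes with several probe sets (147) the one brightest over all arrays was used; in 24 of these genes the probe sets differed in their call, in 0 in opposite directions.

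Members, tests and gene lists were chosen with earlier results of these data known. The lists of RNA polymerase, THO, carboxypeptidase, ESCRT, nucleotide, beta-glucosidase, SWEET, basic helix-loop-helix, ubiquitin protease and ubiquitin-conjugating genes were added after values were seen, and lists are described without a test. One further list is not reported here. Named genes are the 15 largest rises and falls without overlap, the 3 largest rises and falls and the brightest uncalled member of each list, the 8 brightest genes of each group, and all members of the hypoxia, beta-oxidation, abscisic acid, gibberellin, light and DNA methylation lists. Other list members named here, such as RRP41, LEA, LTI30, APG8H and ELC, were chosen after their values were seen. The genes nearest the limit, which the rule also takes, are not described. The planned description of promoter motifs was not made, since no promoter sequence was used here, and for that reason no sequence is shown. The bacterial control scaling divides each array by the mean of 7 r2 control probe sets of bioB, bioC and bioD and was chosen after seeing the data. Arrays give no depth in counts, and their number limits the precision. Whether the replicate numbers pair the samples is not known. Deviations from the group means of same-numbered arrays correlated at -0.00, -0.15 and 0.30, and those of arrays with different numbers at -0.33 to 0.37. With 3 arrays in each group these values cannot decide it.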

Additional observations from a re-analysis of the deposited data

How the results depend on the processing

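The count of 4846 changed probe sets was 3163 with a pseudocount of 64 (1845 higher; 474 higher and 401 lower at a log2 difference of 2), and with a pseudocount of 1 those higher at a log2 difference of 2 numbered 1625. With no limit on size 14167 passed, 6006 higher and 8161 lower, small differences near the floor included. Scaling to the bacterial controls, chosen after seeing the data, gave 7337 changed, 6561 higher and 776 lower, and 2841 and 266 at a log2 difference of 2. Quantile normalization gave 2456 higher and 2204 lower, a share of 52.7% higher. Over all probe sets the median difference, -0.04 as reported, was -0.11 and -0.0114 with pseudocounts of 1 and 64, -0.0070 with quantile normalization, -0.12 with median centring, 0.12 without dim probe sets and 0.33 with the bacterial controls. Leaving out 1 array at a time gave 4818 to 4961 changed, 2921 to 3083 higher, 1862 to 1914 lower, 962 to 1031 and 662 to 683 at a log2 difference of 2, and medians of -0.0372 to -0.0311. With the replicate number as a block 4846 probe sets were again changed, and no call of a named gene moved. Each group holds the same replicate numbers, so this block leaves every difference unchanged by construction and can alter only the p-values. The differences of 140 named genes under 15 settings gave 2092 values, of which 2010 stayed on their side of the limits, 61 lost the call (22 of them with a pseudocount of 64 and 19 with the bacterial controls) and 20 gained it. The sign differed from the reported one in 15 values, 14 of them called in neither case and 1 called, PAP85 at 1.03 with the bacterial controls. Causes of these shifts were not tested beyond what each setting changes by construction. Detection calls were not used, so signal near the floor limits what can be said of dim genes such as COR15A, COR47, DFR and RCA.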

Other observations

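Some genes stood apart at 12 h of stratification from both its ends, a level that the comparison of 48 h with dry seed does not measure. On all 3 arrays of 12 h, 354 of the 22746 probe sets were above every array of dry seed and of 48 h by a log2 difference of at least 1. Of these 274 were not called between dry seed and 48 h, 42 were higher and 38 lower. Over all 22746 probe sets 13.1% were higher and 8.23% lower, and most were likewise not called. The 354 had a median intensity of 57.8 in dry seed, 293 at 12 h and 51.6 at 48 h. The locus AT3G19680 had means of 10.9 in dry seed, 4185 at 12 h and 45.5 at 48 h. CML38, a calmodulin-like protein, measured 10.9, 235 and 11.8 at the same times, and RALFL33, of the RALF family of signalling peptides, 97.3, 803 and 94.04. STZ, which was lower at 48 h than in dry seed, had a mean of 4019 at 12 h against 529.7 in dry seed and 13.2 at 48 h. A further 15 probe sets lay below both groups at 12 h by the same margin, with medians of 464 in dry seed, 143 at 12 h and 461 at 48 h. XERICO, known for raising abscisic acid levels, was one of these, with means of 740.4, 166 and 379.7. These sets were picked for their level at 12 h, so the values are a description with no test.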
